A study of Arabidopsis thaliana with 9 samples.

Results

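Aux/IAA genes encode short-lived nuclear repressors of the auxin response, and 10 of them were followed in whole seedlings of the splicing mutants smd1b and prp39a and of wild type. The genes were taken by locus: every isoform row whose identifier begins with a member locus was kept, which gave 22 rows of 82190 and 10 genes of 34212, out of 29 Aux/IAA genes in the same table. They are IAA1 (AT4G14560), IAA2 (AT3G23030), IAA3 (AT1G04240), IAA5 (AT1G15580), IAA7 (AT3G23050), IAA10 (AT1G04100), IAA14 (AT4G14550), IAA17 (AT1G04250), IAA19 (AT3G15540) and IAA29 (AT4G32280). Polyadenylated RNA was sequenced from 9 libraries, 3 independent biological replicates each of smd1b (allele smd1b-3), prp39a (allele prp39a-3, insertion line SAIL_1249A03) and wild type (accession Col-0). All plants were 14 days old and grown on 1/2MS medium, whole seedlings were taken, and each mutant is represented by 1 allele. SMD1B encodes a core Sm protein of the spliceosomal snRNPs, and PRP39A encodes a protein associated with the U1 snRNP, which recognises 5′ splice sites.

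In the auxin pathway, the TIR1/AFB F-box proteins bind auxin together with an Aux/IAA protein, and the SCF ubiquitin ligase then marks that Aux/IAA for degradation. Until then the Aux/IAA protein, with the co-repressor TOPLESS, holds back the ARF transcription factors on their target genes. Many Aux/IAA genes are themselves ARF targets, so the pathway contains a feedback loop. In seedlings the family is known for its part in hypocotyl growth, tropism, lateral root formation and root meristem size. IAA19 and IAA29 are also known targets of the PIF transcription factors, which act in light and temperature signalling.

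The sequences shown first belong to the 4 members whose level passed the test in a mutant against wild type (IAA29 in prp39a; IAA19, IAA3 and IAA14 in smd1b). The 250 bases upstream of each annotated gene start were read from the TAIR10.1 genome of RefSeq, on the gene's own strand from 5′ to 3′. Capitals mark every match, on either strand, to the auxin response element TGTCTC, its variant TGTCGG or the G-box CACGTG, the core bound by PIFs. No match overlapped another in the windows shown.
IAA29 upstream (chr4:15583082-15583331, plus strand): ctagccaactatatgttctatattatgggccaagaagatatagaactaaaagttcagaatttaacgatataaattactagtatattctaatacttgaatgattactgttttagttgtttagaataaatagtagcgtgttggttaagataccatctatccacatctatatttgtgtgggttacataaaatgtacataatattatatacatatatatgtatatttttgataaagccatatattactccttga
IAA19 upstream (chr3:5263751-5264000, plus strand): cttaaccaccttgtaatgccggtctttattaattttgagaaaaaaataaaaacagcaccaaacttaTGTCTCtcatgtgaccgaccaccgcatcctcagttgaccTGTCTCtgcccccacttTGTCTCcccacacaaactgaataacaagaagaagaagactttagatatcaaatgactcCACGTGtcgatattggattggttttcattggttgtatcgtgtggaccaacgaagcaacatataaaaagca
IAA3 upstream (chr1:1129690-1129939, minus strand): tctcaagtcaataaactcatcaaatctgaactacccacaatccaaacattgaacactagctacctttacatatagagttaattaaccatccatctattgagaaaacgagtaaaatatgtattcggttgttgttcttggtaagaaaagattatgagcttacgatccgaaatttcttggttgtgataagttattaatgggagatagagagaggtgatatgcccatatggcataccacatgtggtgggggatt
IAA14 upstream (chr4:8350264-8350513, minus strand): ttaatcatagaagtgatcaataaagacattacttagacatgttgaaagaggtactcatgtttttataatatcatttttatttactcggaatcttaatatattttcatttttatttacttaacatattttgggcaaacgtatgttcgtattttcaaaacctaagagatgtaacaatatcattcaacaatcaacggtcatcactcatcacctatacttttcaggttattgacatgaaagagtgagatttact

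The IAA19 window held 3 copies of TGTCTC and 1 copy of CACGTG, while the windows of IAA29, IAA3 and IAA14 held none of the searched words. Among the members, 3 of 10 windows held TGTCTC, as did 6 of 19 windows of the other Aux/IAA genes and 10.9% of the windows of 27443 protein-coding genes. The word TGTCGG was in 2 of 10 member windows, against 4.16% over all genes. The G-box was in 2 of 10 member windows, against 6.49% over all genes. Within 1000 bases, TGTCTC was in 6 of 10 members and 39.6% of all genes, and IAA3 then had 3 copies and IAA29 had 1 copy of TGTCGG. These matches describe letters in a window only.

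Since both mutated genes act in the snRNPs that read 5′ splice sites, the sites of the same 4 members are shown next. Each line gives the last 5 exon bases and the first 10 intron bases, with the first 6 intron bases in capitals.
IAA29 (intron at chr4:15583739-15583922, plus strand): tacgaGTGAGTacct
IAA29 (intron at chr4:15584252-15584356, plus strand): cgaatGTAAGTacta
IAA29 (intron at chr4:15584448-15584552, plus strand): tggaaGTAAGTttac
IAA3 (intron at chr1:1129053-1129134, minus strand): cgaaaGTAAGTtaaa
IAA3 (intron at chr1:1128640-1128743, minus strand): tgggaGTAAGTcttc
IAA14 (intron at chr4:8349512-8349702, minus strand): gctaaGTAAGTtcta
IAA14 (intron at chr4:8349145-8349281, minus strand): catggGTATGCattt
IAA14 (intron at chr4:8348697-8349008, minus strand): tggccGTGAGTttcc
IAA14 (intron at chr4:8348559-8348634, minus strand): acttgGTAAGTtttc
IAA19 (intron at chr3:5264509-5265101, plus strand): catcgGTTAGTaaca
IAA19 (intron at chr3:5265196-5265287, plus strand): tggggGTATGTtcta

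The annotation gave the 10 members 27 introns with 26 distinct 5′ splice sites, since IAA29 has 2 alternative introns that start at the same base. All 26 began with GT, as did 98.7% of 128624 distinct sites in the genome. The six-base word GTAAGT opened 10 of the 26 member introns (38.5%), both introns of IAA3 among them, against 9.08% of all sites. Both sites of IAA19 and all sites of IAA7 and IAA17 departed from it. No test was made of these shares.

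The members lie on chromosomes 1, 3 and 4, and 6 of them form 3 neighbouring pairs. IAA3 (chr1:1128149-1129689, minus strand) and IAA17 (chr1:1136078-1138663, plus strand) are 6.39 kb apart. IAA14 (chr4:8347822-8350263, minus strand) and IAA1 (chr4:8360996-8362033, plus strand) are 10.7 kb apart. IAA2 (chr3:8180646-8182095, minus strand) and IAA7 (chr3:8194606-8197161, plus strand) are 12.5 kb apart. The remaining members are IAA5 (chr1:5365512-5366497), IAA10 (chr1:1059470-1061209), IAA19 (chr3:5264001-5265695) and IAA29 (chr4:15583332-15584903). PRP39A lies on the same chromosome as 4 of them, 2.64 kb from IAA10, 71.3 kb from IAA3 and 79.2 kb from IAA17, with IAA5 farther away.

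The labels were checked on the mutated genes. SMD1B was listed at 0, 0.138 and 0 TPM in the smd1b libraries, against 53.1, 53.6 and 50.3 TPM in wild type. PRP39A measured 5.44, 5.48 and 5.58 TPM in the prp39a libraries, against 48.5, 55.1 and 50.0 TPM in wild type. TPM, a relative transcript abundance, corrects for transcript length and sums to 1000000 in each library, so every value is a share of that library's RNA, and the read depth behind it is unknown. In whole seedlings, fewer cells of a type and less RNA per cell cannot be told apart. Leaf marker genes (8 genes) summed to 26212 to 35042 TPM and root marker genes (12 genes) to 216 to 446 TPM across the 9 libraries. The floral markers AP1, AP3, PI and AG were below 1 TPM, and SEP3 was at 3.56 to 6.69 TPM.

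In wild type the mean levels of the 10 members ran from 0.287 to 201 TPM. IAA2, an early auxin-induced member, averaged 201 ± 14.1 TPM and IAA7 (AXR2, known from gain-of-function mutants with agravitropic roots) 182 ± 5.15 TPM (SD, n = 3 each), and their ranges overlapped. IAA3 (SHY2, a repressor that limits root meristem size) followed at 87.4 ± 12.5 TPM. IAA17 (AXR3) at 42.5 ± 10.4 TPM and IAA29 at 30.2 ± 10.2 TPM overlapped in range, as did IAA1 at 16.5 ± 1.90 TPM and IAA14 at 15.8 ± 1.82 TPM. IAA19 averaged 9.69 ± 1.36 TPM and IAA10 5.76 ± 0.750 TPM. IAA5 was below 1 TPM everywhere, at 0.219 to 0.595 TPM in smd1b, 0.479 to 0.626 TPM in prp39a and 0.212 to 0.404 TPM in wild type, and was too low to be tested. The order of the means was the same in smd1b except that IAA10 stood above IAA19, with overlapping ranges. In prp39a, IAA29 stood above IAA17 and overlapped IAA3.

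**Figure D1:**
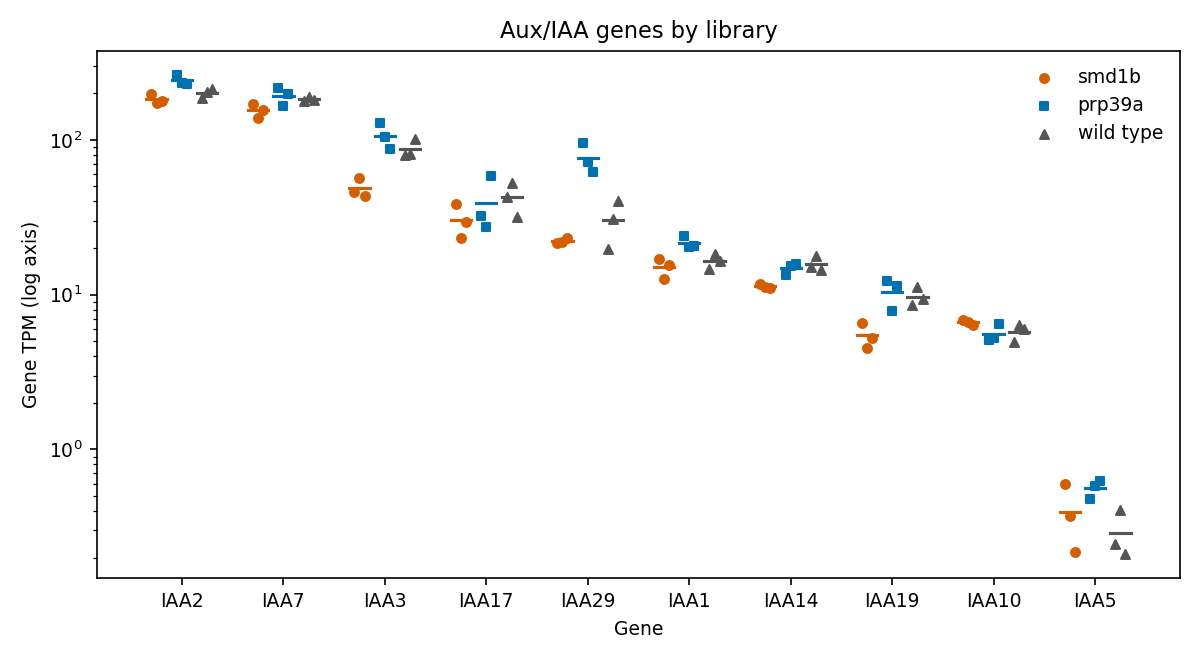
TPM of the 10 Aux/IAA genes in each library (points, log axis) with the mean of 3 libraries (bar), for smd1b, prp39a and wild type. IAA29 stands apart in prp39a at 61.9 to 95.4 TPM, and IAA3, IAA14 and IAA19 lie lower in smd1b than in wild type.

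The replicates of the members did not vary alike. The pooled standard deviation of log2(TPM + 0.5) within genotypes was 0.106 for IAA2 and 0.119 for IAA14, near the median of 0.130 over 20585 genes. It was 0.347 for IAA29 and 0.441 for IAA17, so only large differences of these 2 genes could pass a test. Together the 10 genes summed to 478 ± 35.4 TPM in smd1b, 710 ± 72.5 TPM in prp39a and 592 ± 35.3 TPM in wild type. They made up 37.6 ± 1.39% of the whole family's TPM in smd1b, 45.4 ± 2.27% in prp39a and 40.1 ± 1.59% in wild type.

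In smd1b, 3 members fell and none rose. IAA3 measured 45.9, 56.5 and 43.6 TPM in smd1b, against 79.4, 80.9 and 102 TPM in wild type. All 3 smd1b libraries lay below all 3 wild-type libraries, and the log2 fold change was -0.84 (SE 0.158, adjusted p = 0.0191, limma on log2(TPM + 0.5) with Benjamini-Hochberg adjustment over all genes tested). IAA19 (MSG2, known for its part in hypocotyl tropism) measured 6.57, 4.55 and 5.27 TPM in smd1b, against 8.55, 11.2 and 9.32 TPM in wild type. The groups did not overlap, and IAA19 fell by 0.78 on the log2 scale (SE 0.182, adjusted p = 0.0383 by limma). IAA14 (SLR, the repressor whose stabilised form blocks lateral root formation) measured 11.8, 11.1 and 11.02 TPM in smd1b, against 15.1, 17.9 and 14.5 TPM in wild type. The groups again did not overlap, and IAA14 fell by 0.46 on the log2 scale (SE 0.0962, adjusted p = 0.0267 by limma).

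The other 6 tested members did not pass in smd1b. IAA7 measured 169, 138 and 157 TPM in smd1b, against 179, 188 and 180 TPM in wild type. Every smd1b library was below every wild-type library, with a log2 fold change of -0.24 (95% interval -0.48 to 0.00, adjusted p = 0.221 by limma). IAA29 measured 21.5, 21.7 and 23.3 TPM in smd1b, inside the wild-type range of 19.7 to 40.1 TPM, with a log2 fold change of -0.38 (interval -0.91 to 0.15). IAA10 was the single tested member on the higher side, at 6.88, 6.68 and 6.36 TPM in smd1b, against 4.92, 6.36 and 6.01 TPM in wild type (log2 fold change 0.20, interval -0.07 to 0.46). IAA1 and IAA2 had log2 fold changes of -0.14 each, and IAA17 one of -0.48 with an interval of -1.14 to 0.19.

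In this contrast 3 of 9 tested members passed, all lower, while 6.63% of 20585 tested genes passed in either direction, 3.06% as lower and 3.57% as higher. The members, and the gene lists below, were chosen with earlier results of these data known. Such comparisons with all genes, here and below, are therefore descriptive only. All 3 smd1b libraries lay below all 3 wild-type libraries for 4 of the 9 members, against 13.3% of all tested genes, and above them for 1 of the 9, against 17%. The members' median log2 fold change was -0.38, against 0.02 over all tested genes. IAA3 lost the call without smd1b replicate 3 (adjusted p = 0.0829) and without wild type replicate 3 (0.0617). IAA14 lost it without smd1b replicate 2 (0.0794) or 3 (0.101) and without wild type replicate 1 (0.0631) or 2 (0.0737), and IAA19 lost it without smd1b replicate 2 (0.114) or 3 (0.127) and without wild type replicate 1 (0.0738), 2 (0.115) or 3 (0.0939), and at 0.0654 when genes below 1 TPM were tested too.

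In prp39a, 1 member rose and none fell. IAA29 measured 95.4, 72.4 and 61.9 TPM in prp39a, against 19.7, 30.7 and 40.1 TPM in wild type. The lowest prp39a library stood above the highest wild-type library, and the difference was 2.57-fold (log2 fold change 1.36, SE 0.234, adjusted p = 0.0180 by limma). IAA29 took 10.7 ± 1.55% of the 10 members' summed TPM in prp39a, against 5.04 ± 1.48% in wild type. Without prp39a replicate 1 the adjusted p was 0.0641, without wild type replicate 2 it was 0.0633, and with the 6 libraries of these genotypes fitted alone it was 0.0541.

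IAA1 and IAA2 were the nearest to the threshold among the other members. IAA1 (AXR5) measured 23.8, 20.4 and 20.6 TPM in prp39a, against 14.6, 18.4 and 16.4 TPM in wild type, with a log2 fold change of 0.38 (SE 0.125, adjusted p = 0.114 by limma). IAA2 measured 263, 234 and 228 TPM in prp39a, against 186, 203 and 214 TPM in wild type, with a log2 fold change of 0.26 (SE 0.0854, adjusted p = 0.113 by limma). Neither gene's groups overlapped, and neither passed. The other 6 tested members had log2 fold changes of -0.16 (IAA17) to 0.28 (IAA3), and the 95% interval of each included 0.

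Over the 9 tested members, 1 passed in prp39a against wild type, as higher, while 4.13% of all tested genes passed, 1.73% as higher and 2.39% as lower. The members' median log2 fold change was 0.09, against -0.07 over all genes. After median-of-ratios scaling of the TPM, the 357 higher and 493 lower genes of this contrast became 614 and 381, and IAA29 stayed the only member called. All 3 prp39a libraries lay above all 3 wild-type libraries for 3 of the 9 members, against 9.42% of all tested genes, and below them for 0 of the 9, against 18.6%. Of the listed auxin genes near the PRP39A locus, the members IAA10, IAA3 and IAA17 did not pass, while YUC9, an auxin synthesis gene described with its list, rose. IAA10 measured 5.09, 5.24 and 6.42 TPM in prp39a, against 4.92, 6.36 and 6.01 TPM in wild type. IAA3 measured 128, 105 and 87.0 TPM in prp39a, against 79.4, 80.9 and 102 TPM in wild type, and the groups overlapped.

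**Figure D2:**
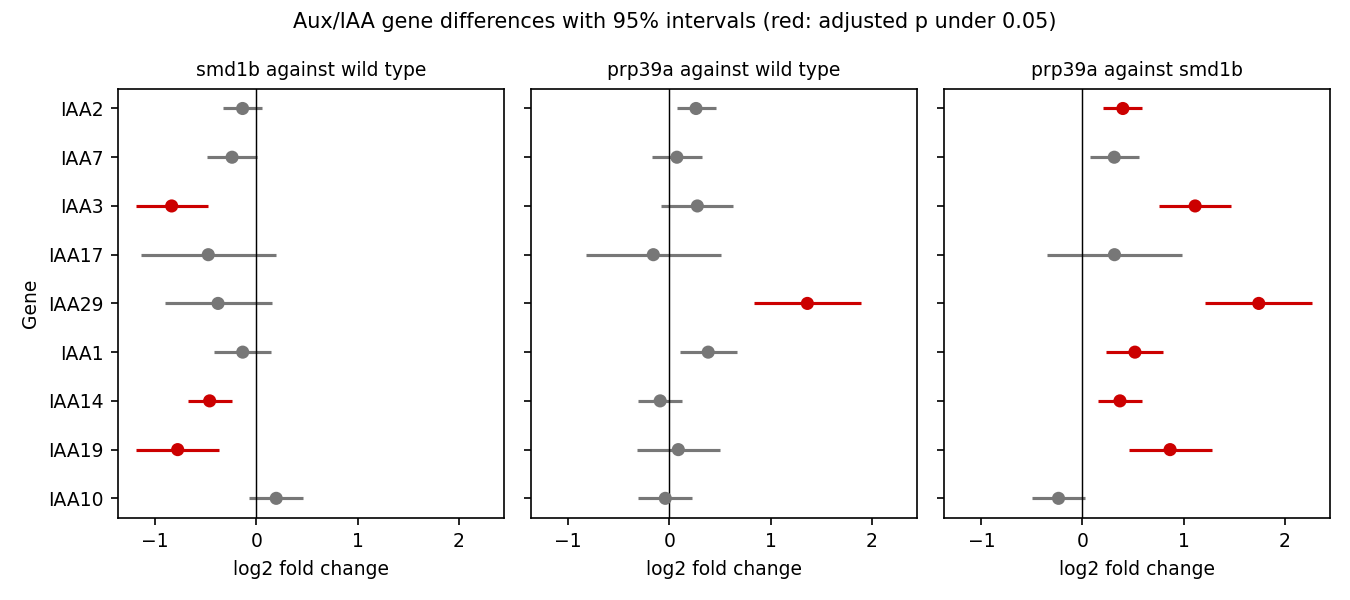
Log2 fold change of the 9 tested Aux/IAA genes (points) with 95% intervals (lines) in the 3 comparisons, red where the adjusted p was under 0.05. Against wild type, IAA3, IAA14 and IAA19 are red in smd1b and IAA29 in prp39a; between the mutants 6 genes are red, all higher in prp39a.

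Both comparisons use the same wild-type libraries, so the mutants were also set against each other directly. Here 6 of 9 members were higher in prp39a than in smd1b and none was lower, while 21.1% of all tested genes passed, 6.39% as higher and 14.7% as lower. The same scaling turned 1316 higher and 3020 lower genes into 2191 and 2029, with 7 members called, all higher. IAA29 was 3.35-fold higher in prp39a than in smd1b (log2 difference 1.74, SE 0.234, adjusted p = 0.00215 by limma). IAA3 was 2.16-fold higher (log2 difference 1.11, SE 0.158, adjusted p = 0.00279 by limma) and IAA19 1.82-fold higher (0.87, SE 0.182, adjusted p = 0.0124 by limma). For these 3 genes the groups did not overlap, and the call held in all 17 alternative settings.

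IAA1, IAA2 and IAA14 also passed, with log2 differences of 0.52, 0.40 and 0.37 and adjusted p of 0.0209, 0.0133 and 0.0270 by limma. Without smd1b replicate 3 the adjusted p was 0.0548 for IAA1 and 0.0507 for IAA2, and without prp39a replicate 1 it was 0.0749 for IAA1. IAA14 lost its call without any of the smd1b libraries and without prp39a replicate 2 or 3, at adjusted p of 0.0525 to 0.0849. Leaving out smd1b replicate 3 took the count from 6 to 3. IAA7 (log2 difference 0.31, adjusted p = 0.0682 by limma), IAA17 (0.32, adjusted p = 0.470) and IAA10 (-0.24, adjusted p = 0.179) did not pass. The members' median log2 difference was 0.40, against -0.08 over all genes, and 6 of 9 members had every prp39a library above every smd1b library, against 12.5% of all tested genes. For 0 of the 9 every prp39a library was below every smd1b library, against 27.2%.

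IAA17 varied most between replicates and did not pass in any comparison. It measured 38.7, 23.2 and 29.4 TPM in smd1b, 32.3, 27.3 and 58.3 TPM in prp39a and 43.0, 52.6 and 31.8 TPM in wild type. The 2 highest values belonged to prp39a replicate 3 and wild type replicate 2. The summed root markers were also highest there, at 446 TPM in prp39a replicate 3 and 384 TPM in wild type replicate 2, while they were at 216 to 307 TPM in the other 7 libraries. Of 12 root markers 7 were tested, none passed in prp39a, and SHR (a root stele regulator) fell in smd1b, to 5.23 ± 0.580 TPM against 7.40 ± 0.606 TPM in wild type (adjusted p = 0.0380 by limma, and up to 0.137 in the 5 fits without smd1b replicate 2 or 3 or any wild-type library). In smd1b 6 of the 7 were below wild type, with a median log2 fold change of -0.30, against 0.02 over all genes. In prp39a 5 of the 7 were below wild type, with a median of -0.16, against -0.07 over all genes. THAS1 made up 41.3% of the summed root markers and was the 1 tested marker above wild type in smd1b (log2 fold change 0.40). THAS1 measured 125, 157 and 151 TPM in smd1b, 77.6, 119 and 113 TPM in prp39a and 83.8, 140 and 111 TPM in wild type. The sum had the same replicate order as THAS1 in wild type but not in smd1b or prp39a. PRP3, a root marker named after its values were seen, peaked in the libraries with the highest sums. It measured 187 TPM in prp39a replicate 3 and 110 TPM in wild type replicate 2. The part of the root markers in the values of IAA17, IAA3 and IAA14, genes known for roles in roots, was not tested.

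The leaf markers stood at 26824, 29861 and 26725 TPM in smd1b, 35042, 32566 and 28420 TPM in prp39a and 32032, 26212 and 31298 TPM in wild type. IAA29 was highest in prp39a replicate 1 and lowest there in replicate 3, the same order as the leaf markers, whereas in wild type the lowest IAA29 value came from replicate 1, with the highest leaf marker sum. None of the 8 leaf markers passed against wild type in either mutant. In smd1b 6 of the 8 were below wild type and the list's median log2 fold change was -0.12. In that mutant 3 had an unadjusted p under 0.05, as did 4814 of all 20585 tested genes. Of these 3 markers, LHCB1.1 and LHCB2.1 were lower, and CA1, also named after its values were seen, was higher (log2 fold change 0.26). In prp39a 5 of the 8 were above wild type, none had such a p and the median was 0.10. Between the mutants 2 of 8, LHCB1.1 and LHCB2.1, both light-harvesting protein genes named after their values were seen, were higher in prp39a than in smd1b. LHCB1.1 measured 5879, 5402 and 4269 TPM in prp39a, against 2810, 3424 and 2662 TPM in smd1b (1.74-fold, adjusted p = 0.0120 by limma). It has near-identical copies, so how reads were divided among them is uncertain. The count of 2 was 0 without smd1b replicate 3 and 0 with no TPM filter, and 1 without smd1b replicate 1 or prp39a replicate 2. Without prp39a replicate 1 there was 1 higher and 1 lower. The part of these markers in the members' values was not tested.

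**Figure D3:**
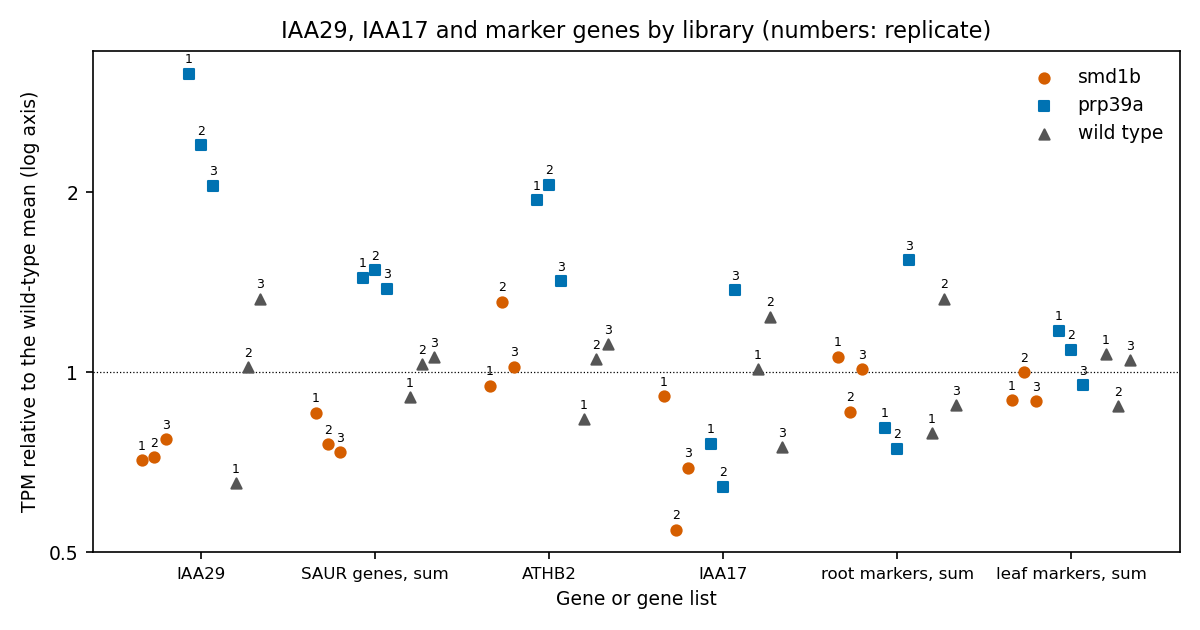
TPM relative to the wild-type mean (log axis) for IAA29, the summed SAUR genes, ATHB2, IAA17 and the summed root and leaf markers, 1 point per library with its replicate number, in smd1b, prp39a and wild type. IAA29 and the SAUR genes are higher in all 3 prp39a libraries, while IAA17 and the root markers are both highest in prp39a replicate 3 and wild type replicate 2.

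Since SMD1B and PRP39A act in splicing, the shares of the members' isoforms were compared as well. The deposited table lists 1 isoform for IAA2, IAA5, IAA17 and IAA19, for which no shift of isoforms could be seen, and 2 to 5 isoforms for the other 6 genes. Of the 22 isoforms 13 passed the filter (a mean share of 0.05 to 0.95 in genes of at least 1 TPM), and each was set against the other isoforms of its gene on the log2 scale. By limma none of the 13 passed in any comparison, while 2.17% of 21990 isoforms passed in smd1b against wild type, 10.6% in prp39a against wild type and 13.5% in prp39a against smd1b. Before adjustment, 0, 0 and 2 of the 13 had a p under 0.05, in the same order of comparisons, against 3985, 5255 and 6165 of all 21990. The 2 were _P1 and _JS1 of IAA14, which are 1 ratio with opposite signs and so 1 result. The 2 isoforms of IAA1 mirror each other in the same way. The isoform suffixes were used as listed, since no annotation paired them with a structure.

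IAA29 divided its RNA between 3 isoforms in every genotype. Isoform _P1 took 68.0, 45.9 and 51.6% of the gene's TPM in smd1b, 54.4, 51.3 and 48.7% in prp39a and 56.3, 60.7 and 62.2% in wild type. Isoform _P3 took 25.8 ± 5.60% in smd1b, 30.9 ± 1.35% in prp39a and 24.8 ± 2.31% in wild type, and _P2 took 19.0 ± 6.37%, 17.7 ± 2.18% and 15.4 ± 1.90% in the same groups. In prp39a all 3 were above wild type in TPM: _P1 stood at 51.9, 37.1 and 30.2 TPM in prp39a, against 11.1, 18.7 and 24.9 TPM in wild type. The log2 ratio of _P1 to the other 2 isoforms differed by -0.47 in prp39a against wild type (95% interval -1.16 to 0.23, adjusted p = 0.420 by limma), an interval that leaves room for a shift of more than 1 log2 unit. For _P3 it differed by 0.39 (interval -0.15 to 0.93, adjusted p = 0.383 by limma). In share, every prp39a library was below every wild-type library for _P1 and above for _P3, but neither isoform passed.

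IAA14 had the smallest p among the member isoforms in smd1b. Its isoform _JS1 took 19.3, 23.2 and 16.6% in smd1b, 18.7, 9.70 and 10.9% in prp39a and 15.8, 11.3 and 13.5% in wild type. Every smd1b library lay above every wild-type library, but the log2 ratio of _P1 to _JS1 differed by -0.62 (interval -1.23 to 0.00, adjusted p = 0.278 by limma) and did not pass. Between prp39a and smd1b that ratio differed by 0.67 (interval 0.06 to 1.29, adjusted p = 0.143 by limma).

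IAA3 used mainly the isoform AT1G04240.1, at 85.5 ± 1.33% in smd1b, 87.7 ± 1.06% in prp39a and 88.3 ± 1.29% in wild type, with _ID2 at 9.25 ± 0.835%, 9.35 ± 0.714% and 8.97 ± 1.22%. Its remaining isoform, _ID3, was below the share filter. It took 4.87, 4.67 and 6.37% in smd1b, 2.24, 3.03 and 3.74% in prp39a and 2.70, 2.84 and 2.72% in wild type, so every smd1b library was above all others. Its level was 2.55 ± 0.280 TPM in smd1b, 3.09 ± 0.206 TPM in prp39a and 2.40 ± 0.325 TPM in wild type, so smd1b overlapped wild type in TPM, while the gene's total was lower in smd1b. With the share limits widened to 0.01 and 0.99, AT1G04240_ID3 passed in prp39a against smd1b (log2 ratio difference -0.91, adjusted p = 0.0421 by limma) but not in smd1b against wild type (0.95, adjusted p = 0.0875).

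IAA7, IAA10 and IAA1 each drew most of their RNA from isoform _P1. For IAA7 it took 86.1 ± 1.08% in smd1b, 86.9 ± 0.261% in prp39a and 84.2 ± 2.19% in wild type, with _s1 at 10.3 ± 1.15%, 9.58 ± 0.107% and 11.4 ± 1.82%, and the 3 others under 5%. For IAA10 it took 90.6 ± 2.99% in smd1b, 90.4 ± 4.72% in prp39a and 89.8 ± 1.87% in wild type. IAA10 _ID2 took 6.94 ± 2.19%, 4.88 ± 2.23% and 4.31 ± 1.48%, and _ID1 took 2.48 ± 0.929%, 4.75 ± 2.81% and 5.90 ± 1.83% in the same groups. For IAA1, _P1 took 93.2 ± 0.959% in smd1b, 94.1 ± 1.43% in prp39a and 92.5 ± 2.63% in wild type, and _ID2 the rest.

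**Figure D4:**
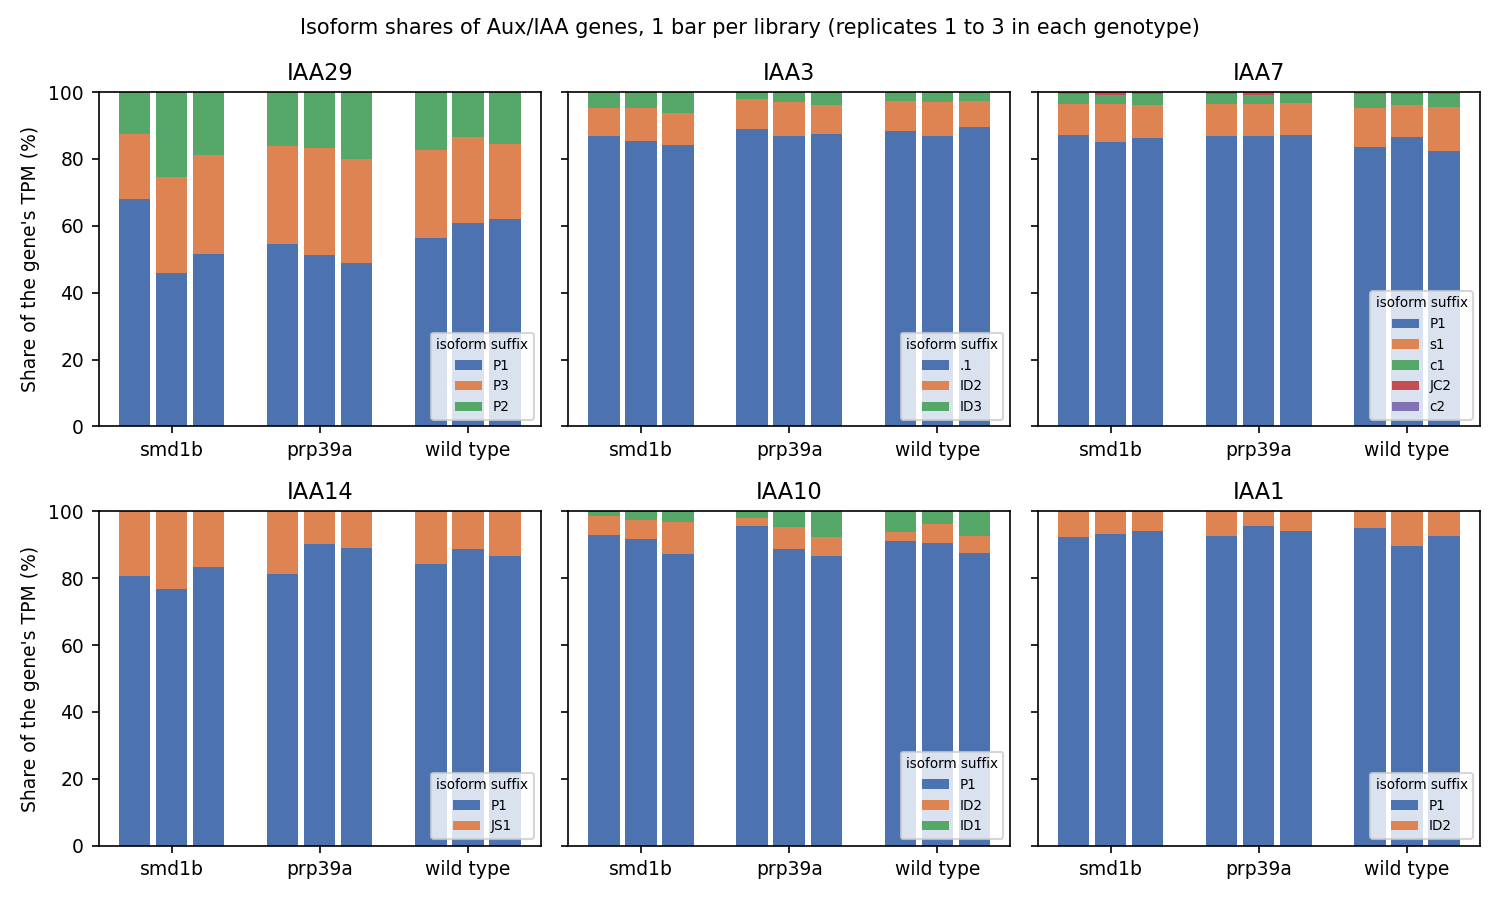
Share of each isoform in the gene's TPM (%), stacked, 1 bar per library, for the 6 Aux/IAA genes with more than 1 listed isoform in smd1b, prp39a and wild type. IAA29 is split between 3 isoforms in every library, and IAA14 _JS1 takes 16.6 to 23.2% in smd1b, against 11.3 to 15.8% in wild type.

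The other genes of the pathway were described by role. Of the 19 other Aux/IAA genes 14 were tested. In smd1b 1 fell, IAA8, which measured 116, 114 and 113 TPM in smd1b, against 148, 139 and 141 TPM in wild type (log2 fold change -0.31, adjusted p = 0.0168 by limma). In prp39a none of the 14 passed, 3 of them at an unadjusted p under 0.05, against 4869 of all 20585 tested genes. Between the mutants 3 were higher and 3 lower in prp39a, counts that became 4 and 1 with median-of-ratios scaling and 2 and 1 with the 6 libraries alone. When 1 library was left out the higher genes numbered 1 to 3 and the lower genes 0 to 3, with the fewest, 1 and 0, without prp39a replicate 1. Of the lower genes, IAA12 lost its call in 9 and IAA27 in 12 of the 17 alternatives, and of all 6 only IAA8 kept its call in every one. The call of IAA8 in smd1b against wild type was less stable, lost at adjusted p of 0.0538 to 0.0711 by limma without smd1b replicate 2 or 3 or without wild type replicate 1 or 3.

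None of the 6 TIR1/AFB receptor genes and none of the 10 genes of the SCF ligase and the co-repressors passed in either mutant against wild type by limma. Before adjustment, 1 receptor gene and 4 of the 10 others had a p under 0.05 in smd1b, and 1 of each list in prp39a. Over all 20585 tested genes, 4814 had such a p in smd1b and 4869 in prp39a. With median-of-ratios scaling 1 receptor gene fell in smd1b and 1 rose in prp39a, and without smd1b replicate 1 1 receptor gene fell in smd1b. Between the mutants 1 receptor gene was higher in prp39a than in smd1b, AFB1, and 3 ligase and co-repressor genes were lower, CUL1 (the cullin scaffold of the ligase), AXR1 and TPR4. These 4 genes were named after their values were seen. AFB1 measured 49.9, 47.4 and 54.7 TPM in prp39a, against 37.5, 29.2 and 31.4 TPM in smd1b (log2 difference 0.63, adjusted p = 0.00503 by limma), and CUL1 measured 93.7, 87.4 and 99.8 TPM in prp39a, against 120, 114 and 119 TPM in smd1b (-0.33, adjusted p = 0.0117). AFB1 and CUL1 kept their calls in all 17 alternatives, whereas AXR1 lost its call in 4 and TPR4 in 7, and the count of 3 fell to 1 without smd1b replicate 1 or 3 or prp39a replicate 1 or 2 and to 2 without smd1b replicate 2. CUL1 (chr4:1128515-1133774) and AFB1 (chr4:1404887-1407402) lie on either side of the mutated SMD1B locus (chr4:1264518-1266486). Whether linkage to that locus has a part in their values was not tested. The most abundant receptor gene, AFB5, measured 48.8 ± 0.997 TPM in smd1b, 47.1 ± 1.76 TPM in prp39a and 48.0 ± 1.75 TPM in wild type. ASK1, an SCF adaptor subunit, measured 230 ± 10.4 TPM in smd1b, 220 ± 16.3 TPM in prp39a and 230 ± 8.32 TPM in wild type. Of the 15 ARF genes none passed in smd1b and 1 rose in prp39a, ARF11, at 16.8 ± 0.417 TPM in prp39a and 13.1 ± 0.507 TPM in wild type (log2 fold change 0.35, adjusted p = 0.0431 by limma). The ARF11 call was lost in 8 of the 9 fits without a library, all except that without smd1b replicate 2, with adjusted p of up to 0.131. In prp39a 13 of the 15 ARF genes were below wild type, 4 had an unadjusted p under 0.05 and the list's median log2 fold change was -0.11, against -0.07 over all genes. Between the mutants ARF11 was higher and 4 ARF genes were lower in prp39a than in smd1b, with 2 to 5 lower when 1 library was left out (2 without any of the smd1b libraries or prp39a replicate 1 or 2). Of those 4, named after their values were seen, ARF4 (log2 difference -0.54, adjusted p = 0.00428 by limma) and ARF8 (-0.41, adjusted p = 0.0109) kept their calls in all 17 alternatives, while ARF6 lost its call in 12 and ARF16 in 5.

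Of the lists compared, the SAUR genes, early response genes several of which are known to promote cell expansion, had the most calls in prp39a. In prp39a 8 of 16 tested SAUR genes rose and none fell, and in smd1b 2 fell and none rose. Over all tested genes, 1.73% passed as higher in prp39a and 3.06% as lower in smd1b. The list's median log2 fold change was 0.45 in prp39a, against -0.07 over all genes, and -0.33 in smd1b, against 0.02 over all genes. The 17 listed SAUR genes summed to 150 ± 12.3 TPM in smd1b, 275 ± 9.90 TPM in prp39a and 192 ± 15.5 TPM in wild type. SAUR22 measured 23.8, 24.6 and 19.8 TPM in prp39a, against 11.03, 13.0 and 13.1 TPM in wild type (log2 fold change 0.85, adjusted p = 0.00431 by limma). SAUR65 measured 17.3, 16.8 and 15.0 TPM in prp39a, against 8.82, 10.7 and 10.5 TPM in wild type (0.68, adjusted p = 0.00674 by limma). Both held in all 17 alternatives.

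SAUR21 and SAUR23 rose in prp39a by 0.85 and 0.86 on the log2 scale (adjusted p of 0.0115 and 0.0173 by limma). SAUR21 lost the call without wild type replicate 2 (0.0529), and SAUR23 without prp39a replicate 1 or 2 or wild type replicate 1 or 2 (0.0530 to 0.0669). The count of 8 became 4 and 3 without prp39a replicate 1 and 2, 5 and 2 without wild type replicate 1 and 2, and 5 with the 6 libraries alone. SAUR19 to SAUR24 are near-identical neighbours, so how reads were divided among them is uncertain. All of SAUR19 to SAUR24 were among the 8 that rose in prp39a, with SAUR16 and SAUR65, so most of these calls come from 1 block of genes. SAUR62 to SAUR68 also lie close together, on chromosome 1. The 2 that fell in smd1b, SAUR19 and SAUR63, lost their calls in 9 of 17 alternatives each, with adjusted p of up to 0.127 and 0.117. For SAUR19 these include the fits without any of the smd1b libraries, prp39a replicate 1 and wild type replicate 2 or 3, and for SAUR63 those without smd1b replicate 2 or 3, prp39a replicate 1 and any wild-type library. Between the mutants 12 of 16 were higher in prp39a than in smd1b and none was lower, against 6.39% and 14.7% of all tested genes.

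Of 5 tested GH3 genes, which encode enzymes that conjugate auxin to amino acids, 1 fell in smd1b and none passed in prp39a. GH3.2 measured 3.303, 2.96 and 2.96 TPM in smd1b, against 5.01, 7.75 and 5.13 TPM in wild type (log2 fold change -0.83, adjusted p = 0.0267 by limma). The groups did not overlap, but the call was lost without smd1b replicate 2 or 3 or wild type replicate 2 or 3, with adjusted p of up to 0.0993. Between the mutants 1 of the 5 was higher in prp39a than in smd1b and 0 lower, against 6.39% and 14.7% of all tested genes. It was GH3.2, at 6.46, 5.79 and 8.17 TPM in prp39a (adjusted p = 0.00551 by limma), and that call held in all 17 alternatives.

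Of 8 tested auxin synthesis genes none passed in smd1b, 4 of them at an unadjusted p under 0.05, against 4814 of all 20585 tested genes. In prp39a 1 rose and 1 fell, both flavin monooxygenases of the YUCCA family. YUC9 measured 25.4, 21.5 and 20.4 TPM in prp39a, against 13.4, 13.4 and 15.7 TPM in wild type (log2 fold change 0.64, adjusted p = 0.0182 by limma). YUC9 lies 47.7 kb from PRP39A. YUC6 measured 3.21 ± 0.384 TPM in prp39a and 4.72 ± 0.0636 TPM in wild type (-0.50, adjusted p = 0.0355 by limma). YUC9 lost its call without prp39a replicate 1 or wild type replicate 1 or 2 (up to 0.0777), and YUC6 in 7 of the 9 fits without a library (up to 0.114), all except those without smd1b replicate 1 and prp39a replicate 3. In smd1b, median-of-ratios scaling gave 1 higher and 1 lower gene, as did leaving out prp39a replicate 3, and 1 was lower with the 6 libraries alone or without smd1b replicate 1. Between the mutants 2 were higher and 3 lower in prp39a than in smd1b, with 1 to 2 higher and 0 to 2 lower when 1 library was left out, none lower without smd1b replicate 3 or prp39a replicate 2.

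Of 11 auxin transport genes none passed in smd1b and 1 rose in prp39a, PIN4, an efflux carrier gene, at 78.3 ± 3.74 TPM in prp39a and 58.1 ± 7.13 TPM in wild type (0.43, adjusted p = 0.0483 by limma, and up to 0.145 in the 8 of 9 fits without a library that lost it, all except that without smd1b replicate 2). Of 5 PIF and shade genes 1 rose in each mutant. ATHB2, a homeodomain gene induced by shade, measured 343, 363 and 251 TPM in prp39a, against 147, 186 and 197 TPM in wild type (0.84, adjusted p = 0.0314 by limma). PIF7, a bHLH factor gene of shade signalling, measured 18.5 ± 0.635 TPM in smd1b and 14.7 ± 1.12 TPM in wild type (0.33, adjusted p = 0.0466 by limma). ATHB2 lost its call in 6 of the 9 fits without a library, with smd1b replicate 3, prp39a replicate 1 or 2 or any wild-type library left out, and PIF7 in 8, all except that without prp39a replicate 2, with adjusted p of up to 0.106 and 0.147. Between the mutants ATHB2 was higher and PIF7 lower in prp39a than in smd1b (adjusted p of 0.0211 and 0.00422 by limma). PIF7 kept that call in all 17 alternatives and ATHB2 lost it in 4. PIN4 and LAX1, the latter named after its values were seen, were also higher there (0.0245 and 0.0159 by limma). Their calls were lost in 3 and 2 of the 17 alternatives.

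**Figure D5:**
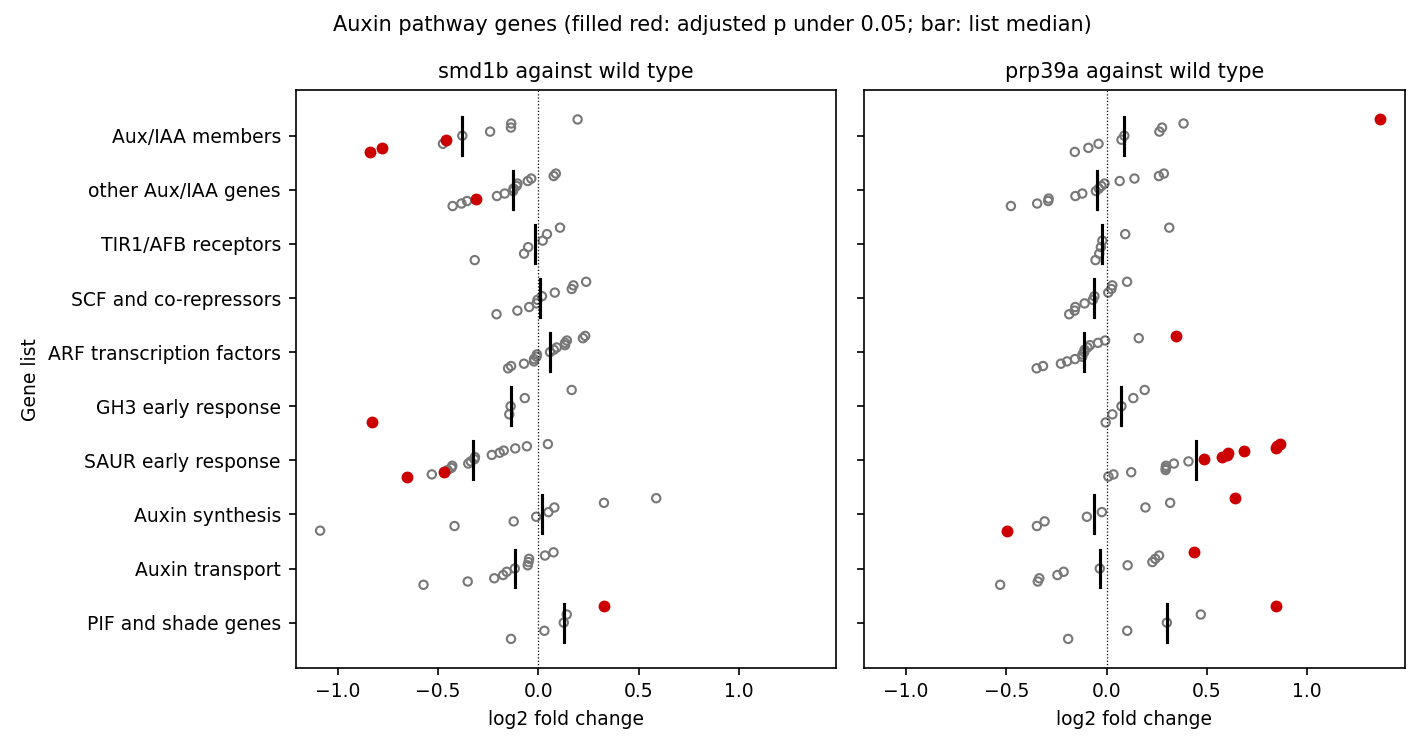
Log2 fold change of each tested gene (circles, filled red where the adjusted p was under 0.05) in 10 auxin pathway lists, with the list's median (bar), for smd1b against wild type and prp39a against wild type. All 16 SAUR genes are above 0 in prp39a and 15 of 16 are below 0 in smd1b.

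The members' shared pattern was summarised as the mean z-score of the 9 tested genes in each library. It was -0.34, -1.10 and -0.82 in smd1b, 0.82, 0.20 and 0.84 in prp39a and -0.29, 0.53 and 0.16 in wild type, so the smd1b libraries were the lowest and prp39a replicate 2 overlapped wild type. Over the 9 libraries the 5 genes most like this pattern by Pearson's r were AT1G35510 (0.975), NodGS (0.971), AT5G27920 (0.969), AT2G14220 (0.968) and WNK3 (0.968). These values describe 9 points in 3 genotypes that share growth, library type and scaling.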

How the data were processed

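Polyadenylated RNA of 9 seedling libraries was analysed. The authors deposited a table of TPM per isoform. Kallisto is named in the column headers, per the file headers, and TAIR10, Trimmomatic, TopHat2, featureCounts and DESeq2 are listed per the submitters' processing notes, without roles. A further 6 value columns that matched no sample were not used. Isoform TPM were summed per gene, and log2(TPM + 0.5) was tested with limma 3.58.1 (R 4.3.3; lmFit, eBayes with trend, two-sided) over all 9 libraries, with genotype as the only term, for 20585 genes of at least 1 TPM on average, and Benjamini-Hochberg adjustment at 0.05. Fold changes are on this scale and understate those of low genes. Isoforms were tested as log2((isoform TPM + 0.5)/(other isoforms' TPM + 0.5)). The fit was tested on simulated data. Sequences and positions are from TAIR10.1 (RefSeq); the deposited table holds no coordinates, and all listed genes were matched by locus.

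All 10 members and their isoforms of at least 5% in any genotype were named; of each other list, up to 4 genes that passed against wild type, otherwise the most abundant. The members and lists were chosen with earlier results of these data known. Alternatives were other pseudocounts, filters, median-of-ratios scaling, the prior without trend, the 6 libraries of a comparison alone, a replicate block and leaving out each library.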

Additional observations from a re-analysis of the deposited data

Results flagged for a closer look

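Members whose change in prp39a against wild type differed from their change in smd1b against wild type, by the test of that difference across all genes, were looked at again. Since both changes are taken against the same wild-type libraries, the difference equals prp39a minus smd1b on the log2 scale. It was 1.74 for IAA29, 1.11 for IAA3, 0.866 for IAA19, 0.519 for IAA1, 0.399 for IAA2 and 0.371 for IAA14 (adjusted p of 0.00215, 0.00279, 0.0124, 0.0209, 0.0133 and 0.0270 by limma). In all 6 genes every prp39a library stood above every smd1b library, against 12.5% of all tested genes. The 6 were picked by a test on these same libraries, so this repeats the result above and adds no support to it. IAA29 passed against wild type in prp39a, IAA3, IAA14 and IAA19 passed against wild type in smd1b, and IAA1 and IAA2 passed in neither.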

How the results depend on the processing

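Of 459 member fold changes recomputed under 17 alternatives, 423 kept their direction and their side of the threshold, 26 lost their call, 2 gained one and 8 changed sign. The count of members called in smd1b against wild type, 3 here, ran from 0 to 3 when 1 library was left out. In prp39a against wild type, 1 here, it ran from 0 to 1 without a library and was 0 with the 6 libraries alone. In prp39a against smd1b, 6 here, it ran from 3 to 6 without a library. The count of member isoforms called, 0 here, became 1 in prp39a against smd1b with the share limits at 0.01 and 0.99, and ran from 0 to 1 there without a library. With the replicate number as a block, 1 member was called in smd1b against wild type (IAA3) and 0 in prp39a against wild type, where IAA29 had an adjusted p of 0.0540 by limma. Same-numbered libraries correlated at -0.401 to 0.287 in their deviations from the genotype means, so the numbers were not taken to pair the libraries. The counts over all genes with that block were 832 in smd1b and 343 in prp39a against wild type, against 1365 and 850, and the 6 libraries alone gave 413 in prp39a. Without a library they ran from 377 to 1407, from 218 to 840 and, for prp39a against smd1b, from 2070 to 4434 (4336 here). Isoforms called in smd1b against wild type, 478 here, were 106 with the 6 libraries alone, 154 with the block and 104 to 409 without a library. Those in prp39a against wild type, 2332 here, were 1422 to 2293 without a library, and those in prp39a against smd1b, 2978 here, were 1878 to 2702.

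The 8 sign changes all concerned values that did not pass. Without a library, the log2 fold change in prp39a against wild type ran from -0.14 to 0.0282 for IAA10 (0.0259 with median-of-ratios scaling), from -0.48 to 0.0596 for IAA17, from -0.0305 to 0.27 for IAA19 and from -0.0165 to 0.18 for IAA7. In prp39a against smd1b it ran from -0.00349 to 0.54 for IAA17. Sign changes of isoform ratios, none past the threshold, were as follows without a library. In prp39a against wild type the log2 ratio difference ran from -0.0326 to 0.20 for IAA10 _ID2, from -0.18 to 0.19 for IAA10 _P1, from -0.16 to 0.0169 for IAA3 AT1G04240.1, from -0.0573 to 0.16 for IAA3 _ID2 and from -0.12 to 0.34 for IAA14 _P1. In smd1b against wild type it ran from -0.00197 to 0.21 for IAA3 _ID2, from -0.13 to 0.22 for IAA1 _P1, from -0.62 to 0.0098 for IAA29 _P1 and from -0.0535 to 0.31 for IAA29 _P3. In prp39a against smd1b it ran from -0.22 to 0.0507 for IAA10 _ID2, from -0.35 to 0.0207 for IAA10 _P1, from -0.48 to 0.15 for IAA29 _P1 and from -0.46 to 0.0939 for IAA29 _P2, and it was 0.0025 for IAA3 _ID2 with a pseudocount of 0.1. The cause of these changes was not tested. TPM keep no depth, so counting error could not be separated from biological spread.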
